A study of Rattus norvegicus with 20 samples.

Results

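Cytochrome P450 enzymes of families 2 and 3 were followed in the livers of male Sprague-Dawley rats, an outbred strain, fed on 1 of 4 diets. Genes were taken where a probe set of the array carried a single rat symbol that began with Cyp2 or Cyp3 followed by a letter. There were 29 such genes of 14217 genes with a single symbol, 25 in family 2 and 4 in family 3. The rats arrived at 4 weeks of age and were fed for 3 weeks, and every diet held 20% protein and 15% fat. The CS group received casein, the main protein of cow's milk, with soybean oil, and the CF group casein with 50 g/kg of fish oil in place of soybean-derived fat. The TS group received freeze-dried tofu with soybean oil and the TF group tofu with the same amount of fish oil. The tofu diets still held some casein, and tofu brought its own soybean fat, so that tofu was compared as a food and not as a purified protein. Each group had 5 rats with 1 array per rat, and by the methods the rats with the highest and the lowest food intake had been left out. No gene was altered, and diet was the treatment that differed between the groups.

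P450 enzymes of these families sit in the endoplasmic reticulum of hepatocytes and insert 1 atom of oxygen into steroids, fatty acids, retinoids, drugs and plant compounds, with electrons passed on by P450 reductase and cytochrome b5. Many of the genes are switched on by the nuclear receptors CAR (Nr1i3) and PXR (Nr1i2), which pair with retinoid X receptors and sense foreign compounds, bile acids and steroids. Several rat members differ between the sexes, because growth hormone is secreted in pulses in males and more evenly in females. Hepatocytes around the central vein of the lobule carry more of many of these enzymes than those around the portal vein.

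Each value is a z score, on a log scale, of 1 probe set on 1 array, and differences are given in z. Folds use the scale on which 0.2 in z equals 1.41-fold. A gene was called where limma's test over all 31039 probe sets gave an adjusted p below 0.05. Close paralogs within the Cyp2a, Cyp2b, Cyp2c, Cyp2d and Cyp3a subfamilies are alike in sequence, and their probes may read each other's transcripts. The 5′ beta-actin control was low in 1 array of each group, the first by number (z 1.30 to 1.42 against 1.86 to 2.13 in the others). The 3 arrays least correlated with the rest all came from tofu rats, namely TS-7, TF-4 and TF-5. The number of arrays limited the precision.

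Cyp3a23-3a1 and Cyp3a2, genes of 1 cluster on rat chromosome 12 that encode steroid- and drug-oxidising enzymes, and Cyp2e1 and Cyp2j4 were the members that passed the test in at least 1 comparison. The 250 bases before their annotated starts are shown, from RefSeq on the GRCr8 build, 5′ to 3′ on the gene's own strand. The start is the one RefSeq's promoter table used, and for 2 genes the gene record reaches further upstream, so that 177 bases of the Cyp2j4 window and 29 of the Cyp3a2 window lie inside it. Capitals mark letter matches on either strand. They are the nuclear receptor half-sites AGTTCA and AGGTCA, the site CAAAGTCCA of the hepatocyte factor HNF4, and the TATA box searched as TATAAA.

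Cyp3a23-3a1, chr12:14398804-14399053, minus strand: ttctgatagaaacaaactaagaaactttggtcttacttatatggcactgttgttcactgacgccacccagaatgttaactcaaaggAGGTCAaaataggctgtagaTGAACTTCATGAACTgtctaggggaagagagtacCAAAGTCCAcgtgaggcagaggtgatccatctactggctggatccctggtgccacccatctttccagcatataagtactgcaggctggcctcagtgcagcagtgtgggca

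Cyp3a2, chr12:14343858-14344107, minus strand: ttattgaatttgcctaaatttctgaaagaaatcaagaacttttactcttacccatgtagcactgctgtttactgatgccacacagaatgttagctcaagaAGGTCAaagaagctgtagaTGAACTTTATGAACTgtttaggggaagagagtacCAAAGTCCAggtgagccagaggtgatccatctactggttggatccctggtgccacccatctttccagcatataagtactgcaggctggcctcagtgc

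Cyp2j4, chr5:116323043-116323292, minus strand: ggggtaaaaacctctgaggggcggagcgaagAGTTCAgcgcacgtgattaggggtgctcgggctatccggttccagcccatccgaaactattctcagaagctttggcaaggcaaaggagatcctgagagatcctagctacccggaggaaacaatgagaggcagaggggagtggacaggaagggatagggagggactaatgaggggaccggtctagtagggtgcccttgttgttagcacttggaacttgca

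Cyp2e1, chr1:205269717-205269966, plus strand: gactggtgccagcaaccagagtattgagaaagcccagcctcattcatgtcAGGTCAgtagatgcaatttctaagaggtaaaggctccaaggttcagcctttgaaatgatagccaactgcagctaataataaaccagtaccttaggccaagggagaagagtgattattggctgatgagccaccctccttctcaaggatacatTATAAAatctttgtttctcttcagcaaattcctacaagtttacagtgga

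PXR and RXR are known to bind repeats of such half-sites. The direct repeat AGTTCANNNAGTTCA, with 3 bases between, was found in 2 of 27457 promoters of this length (0.00728%). Both were members, Cyp3a23-3a1 at -144 to -130 from the start and Cyp3a2 at -131 to -117, each on the opposite strand. It reads TGAACTTCATGAACT in the first gene. It reads TGAACTTTATGAACT in the second, and each repeat contains its own pair of half-site matches. The same 2 genes were the members with the HNF4 site, which 0.331% of promoters held, and their windows shared 210 of 235 aligned bases. AGTTCA alone was found in 9 of the 27 members with a window and in 12.1% of all promoters. AGGTCA was found in 10 of 27 and in 13.7% of all. TATAAA was found in 9 of 27 and in 13.1% of all. CCAAT, searched as well but not marked in capitals, was found in 13 of 27 and in 34.3% of all. The other repeats searched, and the site of the hepatocyte factor HNF1, were found in 0 of 27 members. Direct repeats of the second half-site were in 0.0146% of all promoters with 3 bases between and in 0.0546% with 1 base between. Everted repeats, whose half-sites point apart, were in 0.0% with 6 bases between, and the HNF1 site was in 0.00364%. Paralogs share sequence, and the sites found are matches of letters, not measured binding.

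**Figure D1:**
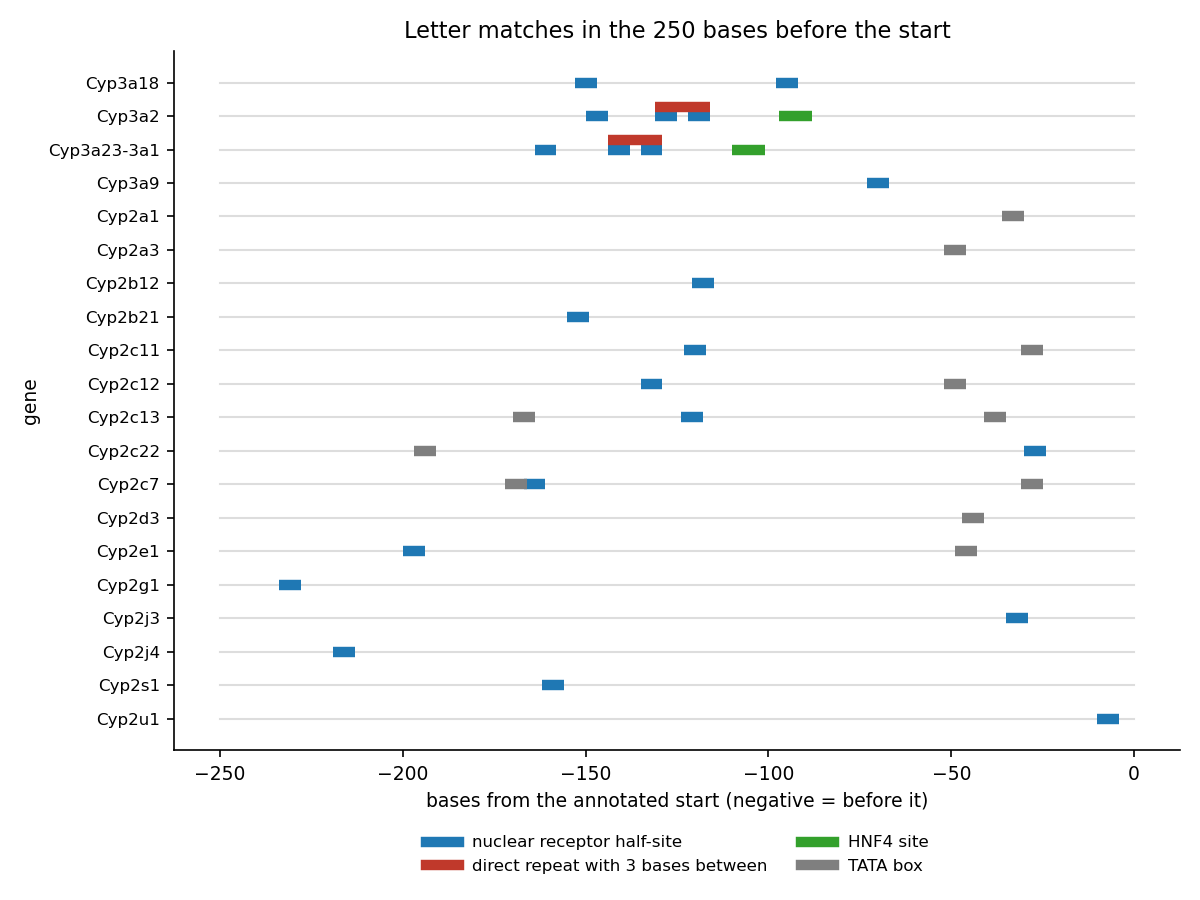
Letter matches in the 250 bases before the annotated start, by distance from the start in bases. The 20 members that held a match other than CCAAT are shown, and CCAAT is not drawn. Half-sites are blue, the direct repeat red, the HNF4 site green and the TATA box grey. The direct repeat is drawn in Cyp3a2 and Cyp3a23-3a1 and in no other row.

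The liver held most of these transcripts at high level. Of the 29 genes, 23 lay above the highest median of any array and 16 were brighter than 95% of all probe sets. The 6 at or below that median were Cyp2a3, Cyp2b12, Cyp2b21, Cyp2g1, Cyp2s1 and Cyp2j10, most of which are known from lung, nose, skin or gut, and no fold is given for them. The SD within groups had a median of 0.106 over the members, against 0.122 over all probe sets.

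On tofu, 22 of the 29 genes were higher and 7 lower than on casein, and 1 passed the test. Cyp3a23-3a1 rose, none fell, and of all 14217 genes 0.921% passed, 0.521% rising and 0.401% falling. The median difference of the members was 0.09, against 0.01 over all genes, of which 58.0% were positive. At an unadjusted p below 0.05 there were 15 members, all of them higher on tofu, against 11.5% of all genes. Under quantile normalization and equal interquartile range, the other scalings run, and the further settings with all 29 genes, 21 to 23 members were positive. Their median difference was 0.07 to 0.10 under these settings, lowest under quantile normalization.

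**Figure D2:**
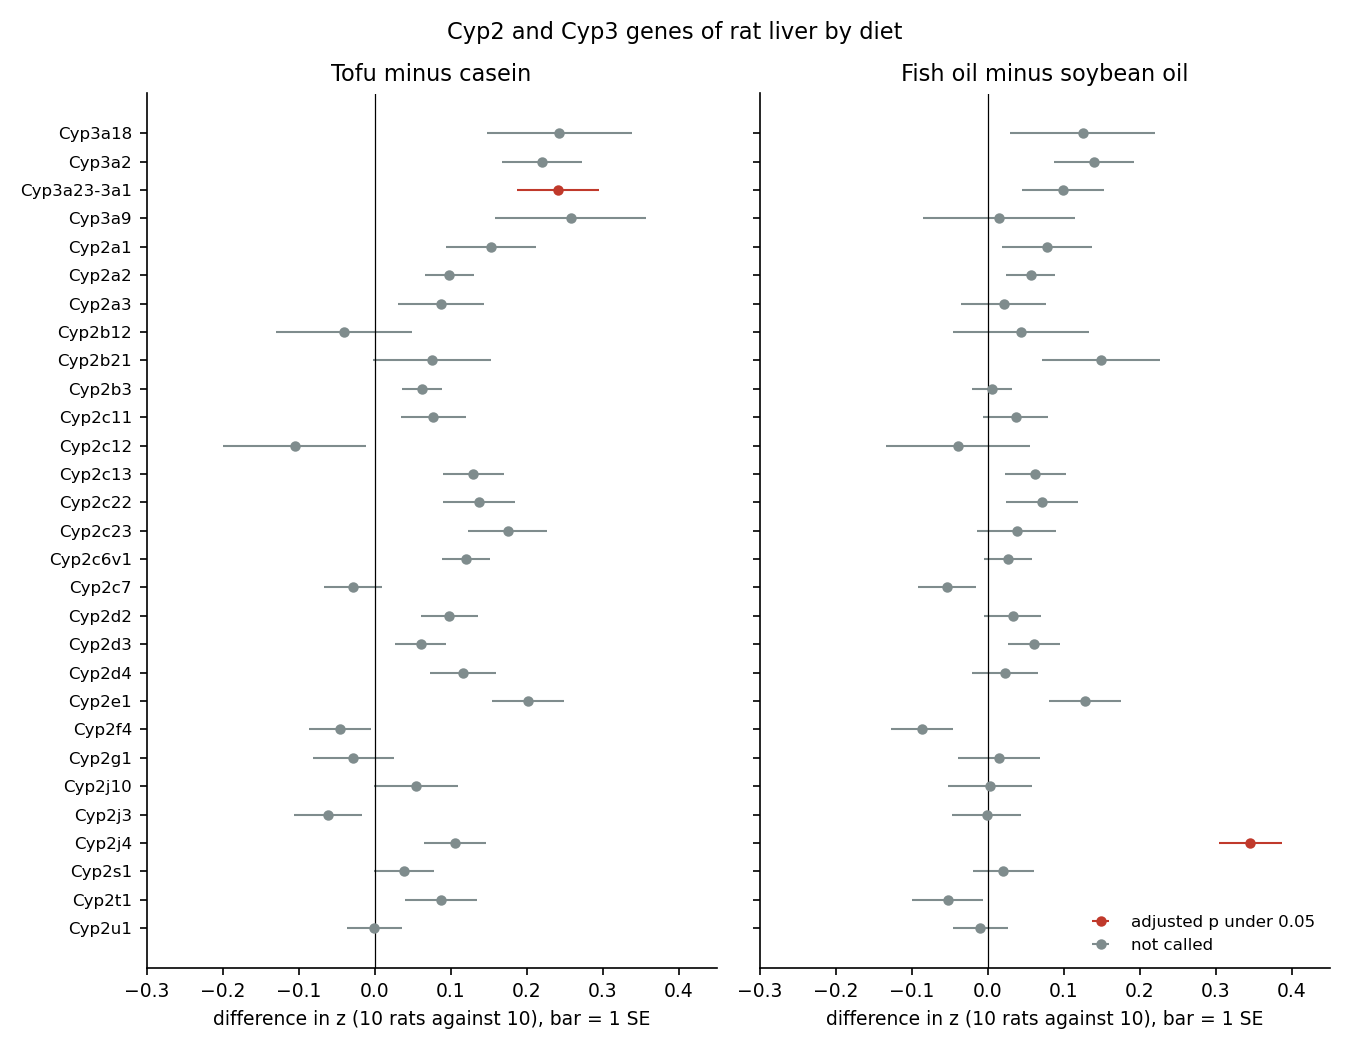
Difference in z between tofu and casein (left) and between fish oil and soybean oil (right) for the 29 genes, 10 rats against 10, with bars of 1 SE. Cyp3a23-3a1 on the left and Cyp2j4 on the right are red, the genes with an adjusted p below 0.05, and all 4 Cyp3a genes lie to the right of 0 in both panels.

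The Cyp3a subfamily, the main drug- and steroid-oxidising P450s, had the 4 largest differences of the 29 genes on tofu, 0.22 to 0.26. The z scores of Cyp3a23-3a1, the classical PXR target of rat liver, were 2.37, 2.32, 2.31, 2.37 and 2.37 in the CS rats and 2.32, 2.52, 2.31, 2.61 and 2.35 in the CF rats. They were 2.67, 2.76, 2.69, 2.42 and 2.29 in the TS rats and 2.70, 2.68, 2.63, 2.68 and 2.75 in the TF rats. Every TF rat lay above every casein rat, 3 of the 5 TS rats lay above them too, TS-5 fell among them and TS-7 was the lowest rat of all. Tofu raised Cyp3a23-3a1 by 0.24 ± 0.05 (SE), 1.52-fold, with a limma adjusted p of 0.0492, and 9 of 10 tofu rats were above the casein mean. The call lay at the edge of the threshold. It was kept when CF-6, TS-5 or TS-7 was left out and lost without any of the other 17 rats (adjusted p 0.00976 to 0.0992 in all 20 such fits), and without the 4 low-actin arrays the difference was 0.22 with adjusted p 0.225. Under quantile normalization it was 0.20 with adjusted p 0.108, and with low actin as a block the adjusted p was 0.0555.

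Cyp3a2, the male-predominant testosterone hydroxylase next to it, had the same direction. Its z scores were 2.81, 2.56, 2.61, 2.79 and 2.48 in CS, 2.94, 2.76, 2.84, 2.81 and 2.78 in CF, 3.09, 2.94, 2.78, 2.79 and 2.93 in TS and 3.20, 3.05, 2.86, 3.00 and 2.95 in TF. All 10 tofu rats lay above the casein mean, and the tofu rats (2.78 to 3.20) overlapped the casein rats (2.48 to 2.94). The tofu difference was 0.22 ± 0.05 (SE), with a limma adjusted p of 0.0716. Cyp3a18, also male-predominant, differed by 0.24 ± 0.10 (limma adjusted p = 0.366), with TS-5 at 1.19 below every other rat and TS-2 at 2.21 above them. Without TS-5, Cyp3a18 passed the test as well. Cyp3a9 differed by 0.26 ± 0.10 (adjusted p = 0.358) and varied most among the 4, from 0.34 in CS-2 to 1.32 in TF-7.

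Cyp2e1, which oxidises ethanol, acetone and other small molecules, was higher in both tofu groups. The z scores were 2.94, 2.71, 2.83, 2.88 and 2.66 in CS, 2.94, 2.84, 3.00, 3.01 and 2.85 in CF, 3.20, 2.93, 2.95, 3.07 and 2.86 in TS and 3.25, 3.10, 3.03, 3.20 and 3.10 in TF. Every TF rat lay above every casein rat, and the TS and CF rats overlapped. The tofu difference was 0.20 ± 0.05 (SE), 1.42-fold, and missed the threshold (limma adjusted p = 0.0636).

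The Cyp2c genes, an abundant P450 group of rat liver, gave 5 positive and 2 negative differences on tofu with none called. Cyp2c23, an arachidonate epoxygenase, differed by 0.18 and Cyp2c22, a retinoic acid hydroxylase, by 0.14. The male-specific Cyp2c13 differed by 0.13, and Cyp2c6v1, which phenobarbital induces, by 0.12, with all 10 tofu rats above the casein mean for both and the lowest adjusted p of the subfamily at 0.113. Cyp2c11, the main male-specific form and a steroid hydroxylase, differed by 0.08. Cyp2c7 and Cyp2c12, the female-predominant forms, differed by -0.03 and -0.11, and Cyp2c12 was far lower in TF-5 (1.36) than in the other TF rats (1.94 to 2.31).

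Of the other subfamilies none passed the test on tofu. The steroid hydroxylases Cyp2a1 and Cyp2a2 differed by 0.15 and 0.10, and the low-signal Cyp2a3 by 0.09. The Cyp2d genes, which oxidise basic drugs, differed by 0.10 (Cyp2d2), 0.06 (Cyp2d3) and 0.12 (Cyp2d4), and a second probe set of Cyp2d4 by 0.16. Cyp2b3, a constitutive form that phenobarbital does not induce, differed by 0.06, with all 10 tofu rats above the casein mean. Cyp2j3 differed by -0.06 and by -0.15 on its second probe set, and Cyp2f4, Cyp2g1, Cyp2b12 and Cyp2u1 lay between -0.05 and 0. Cyp2j4 differed by 0.11, Cyp2t1 by 0.09, Cyp2b21 by 0.08, Cyp2j10 by 0.05 and Cyp2s1 by 0.04.

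**Figure D3:**
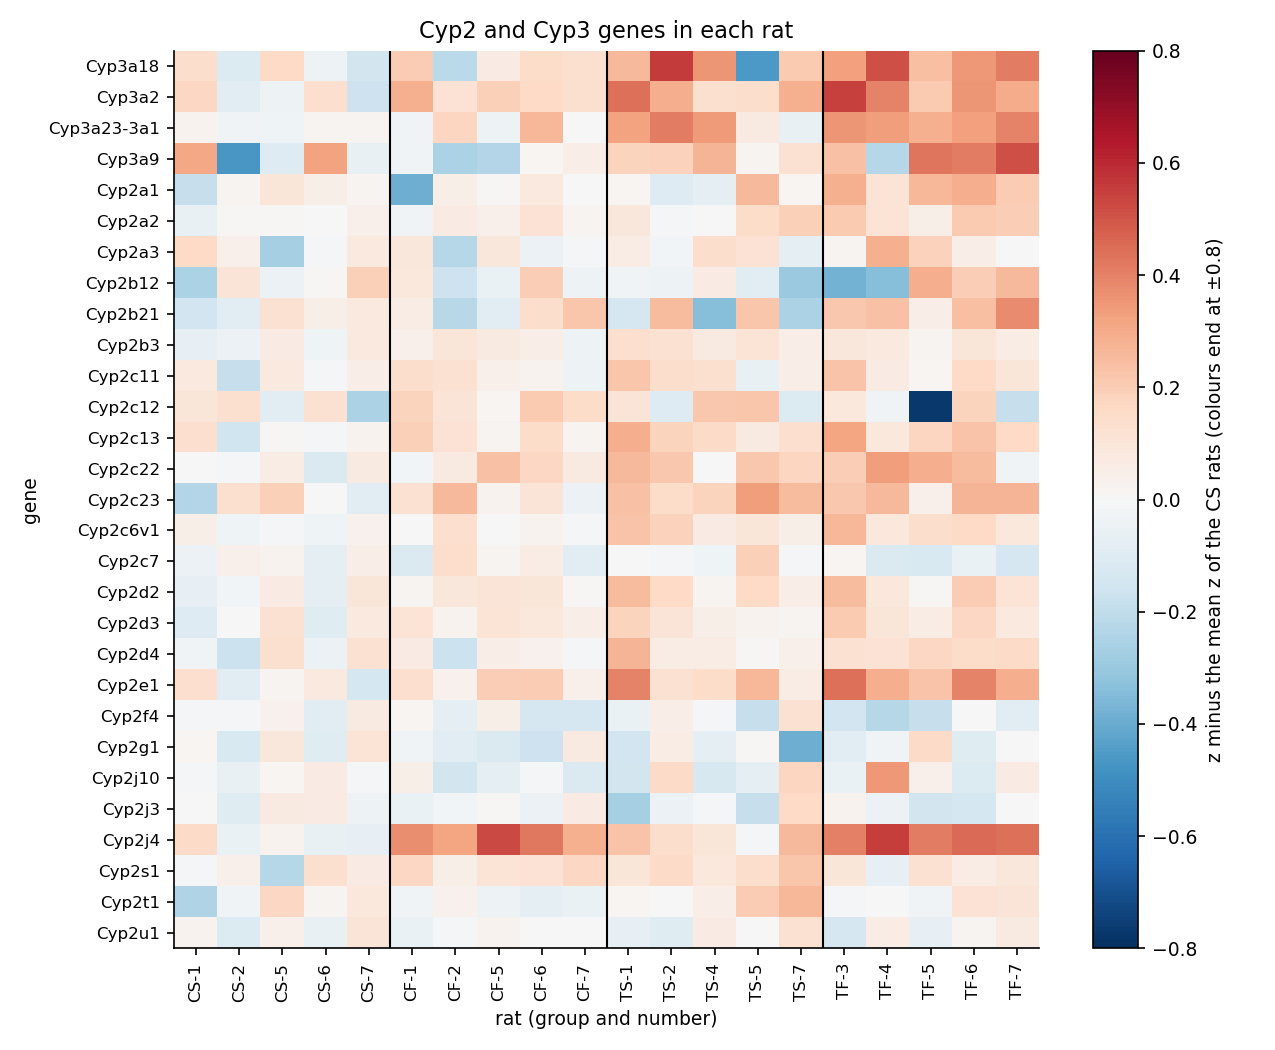
z of each gene (rows) in each of the 20 rats (columns, by group) minus the mean z of the CS rats, from blue (lower) to red (higher), with the colours ending at ±0.8. The rows of Cyp3a2, Cyp3a23-3a1 and Cyp2e1 redden from left to right on average, Cyp2j4 is red in the CF and TF rats, and the darkest blue cell is Cyp2c12 in TF-5 at -0.77.

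Fish oil raised 1 gene, Cyp2j4, and lowered none, while 0.302% of all genes passed, 0.281% rising and 0.0211% falling. Of the 29 genes, 23 were higher and 6 lower on fish oil, with a median difference of 0.03 against -0.002 over all genes, of which 48.2% were positive. Between 20 and 24 members were positive under the settings with all 29 genes. At an unadjusted p below 0.05 there were 4 members, 3 higher and 1 lower, against 5.55% of all genes. Cyp2j4 belongs to the CYP2J enzymes, which turn polyunsaturated fatty acids such as arachidonic acid into epoxides. Its z scores were 1.25, 1.04, 1.12, 1.03 and 1.03 in CS and 1.32, 1.23, 1.19, 1.09 and 1.35 in TS. They were 1.46, 1.41, 1.62, 1.51 and 1.37 in CF and 1.496, 1.64, 1.503, 1.54 and 1.53 in TF. All 10 fish oil rats lay above all 10 soybean oil rats. The difference was 0.35 ± 0.04 (SE), 1.82-fold, with a limma adjusted p of 0.000239. It was 0.38 within casein (adjusted p = 0.0124) and 0.31 within tofu (limma adjusted p = 0.0598), the interaction was -0.07 ± 0.08, and Cyp2j4 was the only member called in CF against CS, where 0.0844% of genes rose. The call held without each of the 20 rats in turn, without the low-actin arrays and without the least correlated arrays.

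The other CYP2J genes did not pass the test on oil. Cyp2j3 differed by -0.001 and the low-signal Cyp2j10 by 0.003. Of the 5 measured arachidonate epoxygenases (Cyp2c11, Cyp2c23, Cyp2j3, Cyp2j4 and Cyp2j10), 4 were positive, and the difference of Cyp2j4 was the only one called. Below the threshold lay Cyp3a2 at 0.14 (limma adjusted p = 0.714), Cyp2e1 at 0.13 (0.704) and, in the other direction, the naphthalene-oxidising Cyp2f4 at -0.09 (0.892).

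**Figure D4:**
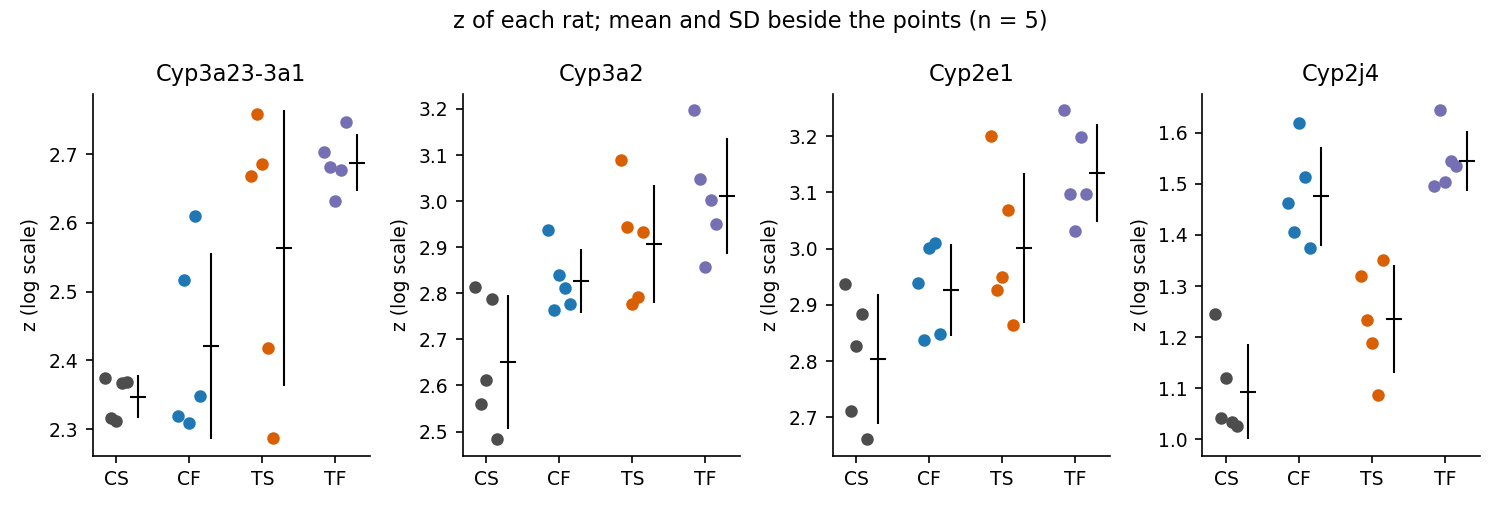
z of each rat for the 4 genes called in at least 1 comparison, by diet group, with the group mean and SD (n = 5) beside the points. Cyp2j4 separates the fish oil groups CF and TF (1.37 to 1.64) from CS and TS (1.03 to 1.35), and for all 4 genes the group mean is highest in TF.

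A probe set annotated to 2 symbols of the Cyp2b subfamily, from which no gene is named here, was higher on fish oil as well. CAR is known to induce this subfamily strongly. Its z scores (1371076_at) were 1.55, 1.14, 1.32, 1.42 and 1.04 in CS, 1.78, 1.61, 2.03, 1.76 and 1.87 in CF, 2.0004, 1.78, 1.56, 1.43 and 1.44 in TS and 2.30, 2.44, 2.16, 1.93 and 2.15 in TF. CF lay above CS and did not overlap it, and TF lay above CS without overlap, while TS spanned CS and CF. The oil difference was 0.53 ± 0.09 (limma adjusted p = 0.00601) and the tofu difference 0.36 ± 0.09 (adjusted p = 0.0642). The probe sets annotated to 2 Cyp2a symbols (1369275_s_at) and 2 Cyp2d symbols (1370377_at) differed by 0.12 and 0.08 on tofu and were not called.

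TF and CS differ in both foods, and 3 of the 29 genes rose between them, Cyp2j4, Cyp2e1 and Cyp3a2, none fell, and of all genes 0.753% passed, 0.542% rising and 0.211% falling. Here 23 members were higher and 6 lower, with a median of 0.13 against 0.01 over all genes, of which 55.5% were positive. Cyp2j4 differed by 0.45 ± 0.06, 2.19-fold (limma adjusted p = 0.000774). Cyp2e1 differed by 0.33 ± 0.07, 1.77-fold (adjusted p = 0.0291), and Cyp3a2 by 0.36 ± 0.07, 1.87-fold (limma adjusted p = 0.0338). For all 3 genes, which were picked by their call in this comparison, the 5 TF rats lay above the 5 CS rats. Cyp3a23-3a1 did not overlap either, at 0.34 ± 0.08, and just missed the threshold (limma adjusted p = 0.0581). The share of all genes without overlap between TF and CS was not counted. The calls of Cyp2e1 and Cyp3a2 were kept in 13 of 20 fits that each left out 1 rat, and were lost without CS-2, CS-5, CS-7, TF-3, TF-4, TF-6 or TF-7. Without the 3 least correlated arrays the differences were 0.38 and 0.40 with adjusted p of 0.0501 and 0.0871, and under quantile normalization Cyp3a2 was lost as well (adjusted p = 0.0879), whereas Cyp2j4 was called throughout.

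The interaction, the fish oil difference on tofu minus that on casein, was called for none of the 29 genes and for 0.0% of all genes. At an unadjusted p below 0.05 there were 2, Cyp2a1 at 0.26 and the low-signal Cyp2s1 at -0.20, against 2.53% of all genes. Of the 29 genes 13 were positive and 16 negative, and of all genes 45.8% were positive. All 7 Cyp2c genes were negative, from -0.34 for Cyp2c12, with its low value in TF-5, to -0.01 for Cyp2c6v1. None of the 7 reached an unadjusted p below 0.05. No member was called between TF and TS, between TF and CF or between TS and CS, comparisons that share arrays with those above and in which 0.134%, 0.0985% and 0.106% of all genes were called.

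Among 22 measured regulators of these genes, 1 rose on tofu, the receptor CAR itself, and none fell. Nr1i3 had z scores of 0.37, -0.05, 0.35, 0.29 and 0.07 in CS, 0.60, 0.52, 0.71, 0.24 and 0.65 in CF, 0.84, 0.75, 0.81, 0.48 and 0.70 in TS and 0.78, 1.06, 0.81, 0.86 and 0.84 in TF. The TF rats lay above every casein rat, and TS-5 and TS-7 of the tofu rats fell among the CF rats. The tofu difference was 0.42 ± 0.07 (SE), 2.06-fold (limma adjusted p = 0.00551), and TF exceeded CS by 0.66 ± 0.10 (adjusted p = 0.00198). Nr1i3 was also higher on fish oil, by 0.25, and did not pass (limma adjusted p = 0.349). Its mean z was 0.21 in CS and 0.54 in CF. The PXR transcript Nr1i2 differed by 0.04 on tofu. Of 6 redox partners none passed the test, Por, the P450 reductase, at -0.11 and Cyb5a, cytochrome b5, at 0.12, and of 11 heme genes none, with Alas1, the rate-limiting step of heme synthesis, at 0.09 and Alad at 0.11 (adjusted p = 0.0798). Of 7 measured CAR and PXR targets outside P450, 6 were positive on tofu, 1 was negative and none passed. Slco1a4, a hepatocyte uptake carrier, differed by 0.26 and Ephx1, the microsomal epoxide hydrolase, by 0.10. The direction was less even elsewhere, with 5 positive and 2 negative on fish oil. For TF against CS, 4 of these 7 targets were positive and 3 negative, and none passed in either comparison. The low-signal Abcc3 differed by -0.23 in CF against CS and was not called.

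Markers of the central zone of the lobule moved on tofu too. Of 7 measured pericentral markers, 3 rose and none fell: Oat, ornithine aminotransferase, by 0.42 ± 0.07 (limma adjusted p = 0.0043), Slc1a2, a glutamate carrier, by 0.34 ± 0.05 (adjusted p = 0.00228) and Cyp1a2, the caffeine-oxidising P450 of family 1, by 0.43 ± 0.08 (adjusted p = 0.00924). Slc1a2 did not overlap between the tofu and casein rats, but its casein means (-0.22 in CS, -0.19 in CF) lay below the highest array median, 0.022. Oat overlapped only through CS-6 and CF-6 among the casein rats and TS-2 and TF-4 among the tofu rats. The other 4 gave 0.15 (Glul), 0.21 (Lgr5), 0.48 (Tbx3) and -0.01 (Axin2). With all probe sets of the gene averaged, Slc1a2 differed by 0.17 and was not called (adjusted p = 0.296). Without the 4 low-actin arrays Oat and Cyp1a2 were not called (adjusted p = 0.0657 for both), nor was Cyp1a2 without the 3 least correlated arrays (0.0779). The mean z over the 7 markers ran from 0.577 to 0.852 in the CS rats and from 0.582 to 0.828 in CF, against 0.882 to 1.07 in TS and 0.956 to 1.12 in TF. By group mean, 4 of the 7 lay above the highest array median in CS and in CF, and 6 in TS and in TF. Of 9 periportal markers, 6 were positive and 3 negative on tofu, with a median difference of 0.04. Hsd17b13, a lipid droplet enzyme, fell by 0.21 (limma adjusted p = 0.00422) and the other 8 did not pass. Without the low-actin arrays Hsd17b13 was not called (adjusted p = 0.0517). The mean z over the 9 ran from 1.98 to 2.20 in CS, 2.04 to 2.17 in CF, 2.07 to 2.20 in TS and 2.003 to 2.24 in TF. In whole liver, fewer cells of a zone and less RNA per cell cannot be told apart. The part of these markers in the Cyp3a and Cyp2e1 differences was not tested.

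**Figure D5:**
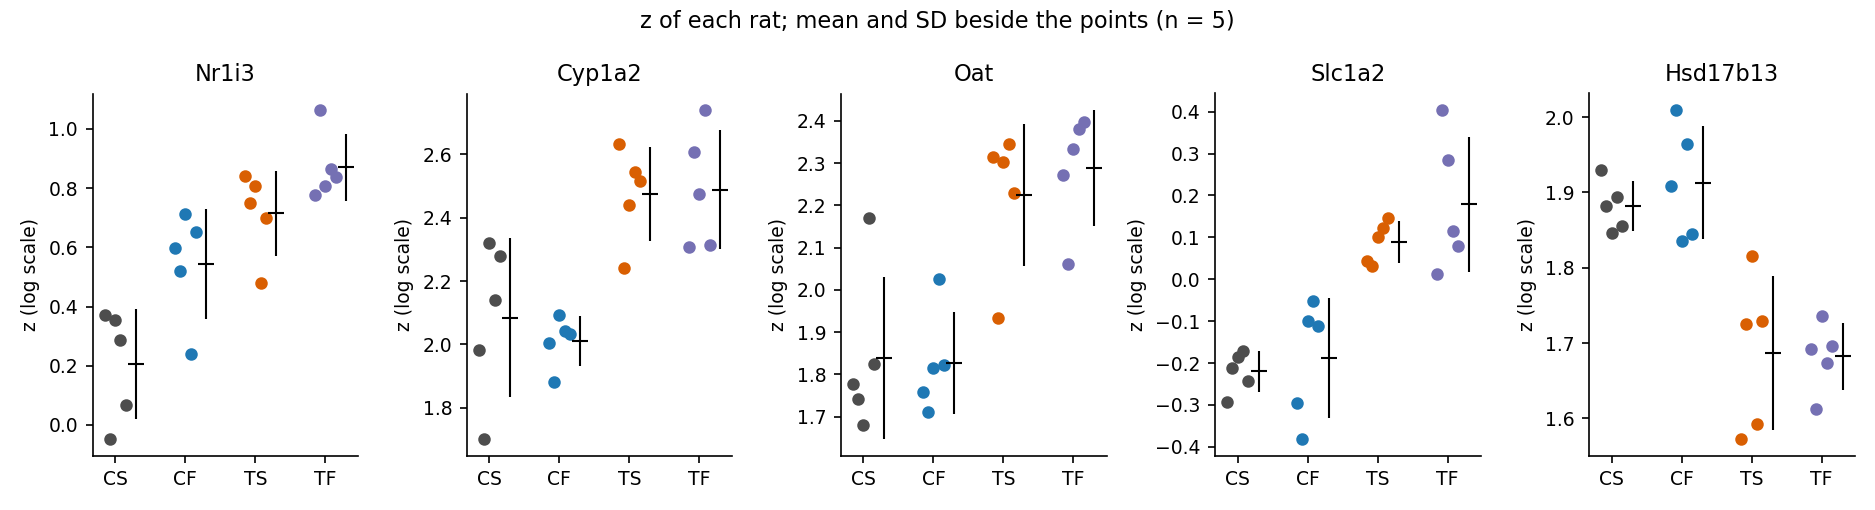
z of each rat for CAR (Nr1i3), the pericentral markers Cyp1a2, Oat and Slc1a2 and the periportal marker Hsd17b13, by diet group. The group mean and SD (n = 5) stand beside the points. Hsd17b13 was the 1 periportal marker called, and 6 of the 9 measured were positive on tofu. The tofu groups TS and TF lie above casein for the first 4 genes on average and below it for Hsd17b13, whose tofu and casein rats do not overlap.

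Of the markers of other liver cells, 1 passed the test. Of 7 general hepatocyte markers none passed the test, and 6 were positive on tofu. Their median difference on tofu was 0.07, beside 0.09 for the P450 members. The mean z over these markers ran from 3.17 to 3.43 over the 20 rats. None of 6 Kupffer cell, 5 endothelial, 4 cholangiocyte or 6 lymphocyte and neutrophil markers passed in the tofu or the oil comparison. Of 7 stellate cell markers Rgs5, also a pericyte gene, rose by 0.28 on tofu (adjusted p = 0.0151) from z scores near the array median, and was not called without the 3 least correlated arrays (0.113). All 7 were negative on fish oil with none passing. All 6 Kupffer cell markers were negative on oil, by a median of -0.07. On tofu all 6 Kupffer cell and all 5 endothelial markers were positive, with medians of 0.03 and 0.07, and their part in the tofu differences of the P450 genes was not tested.

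Correlation between rats was examined for the male-specific genes. After removal of the group means, Cyp2c11 and Cyp2c13 had r = 0.860 and rho = 0.863 over 20 rats (permutation test, two-sided, adjusted p = 0.00024 for both). Without CS-2 and TS-5, the rats farthest from the median of Cyp2c11, r was 0.798. Cyp2c11 and Cyp3a2 had r = 0.534 and rho = 0.493 (permutation adjusted p = 0.0546 and 0.0711), and Cyp2c11 and Cyp2a2 had r = -0.07 and rho = -0.02 (permutation adjusted p = 0.788 and 0.955). Under quantile normalization r was 0.770, 0.413 and -0.491 for the 3 pairs in turn. These were the 3 pairs with a single-symbol probe set for both genes, and probes shared by the paralogs Cyp2c11 and Cyp2c13 could contribute to the first. The 5 male-predominant genes (Cyp2a2, Cyp2c11, Cyp2c13, Cyp3a2 and Cyp3a18) were all positive on tofu and all positive on fish oil, with Cyp3a2 alone passing, in TF against CS. Of the 3 female-predominant genes Cyp2a1 was positive in both and Cyp2c7 and Cyp2c12 negative in both, with none called.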

How the data were processed

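Liver RNA from 20 rats was measured on 3′ expression arrays of Affymetrix made for rat, each rat on its own array. The authors deposited log-scale z scores that the SuperNORM data service had returned, a score centred and scaled within each array. The base of the logarithm and the probes left out there are not given in the sources used here, and no aligner or genome build applies. The table held 31099 probe sets, of which 57 were controls, and 63 values were missing. Symbols came from the platform annotation, updated through Entrez ID for 20757 of 20825 single-symbol probe sets. For each gene the probe set with the highest mean z was kept. A fold was given where both group means lay above 0.022, the highest array median.

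Tests came from limma 3.58.1 (R 4.3.3), which fitted the means of the 4 groups to each of 31039 probe sets, with p-values adjusted by Benjamini-Hochberg over all of them. The model was tested on simulated data. The contrasts were tofu against casein (10 rats each), fish oil against soybean oil, their interaction and TF against CS. Correlations used 100000 permutations within groups in SciPy 1.17.1. The rule for naming took the called members and the 10 with the lowest p for tofu and for oil. It also took the 5 with the lowest p for the interaction and the 5 brightest. Of 15 gene lists it took those called or, with none called, the lowest p. Not every gene or value that the rule took is printed. Other list genes and remaining members were added after their values were seen. Members and lists were chosen with earlier results of these data known. Rat numbers were not used to pair the rats in the main model. With group means removed, same-numbered rats of different groups had correlations of -0.0982 to 0.127 (median 0.0371). Different-numbered rats of different groups had -0.116 to 0.220 (median -0.00804). Whether arrays were processed by rat number was not tested. Promoters came from RefSeq (GRCr8) and were aligned with Biopython; 27 of 29 members had one. The alternatives comprised scaling, filter, variance model, array quality, probe set choice, rat-number block, threshold and leaving out each rat.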

Additional observations from a re-analysis of the deposited data

Results flagged for a closer look

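In 9 of 172 groups of 5 rats, 1 rat stood apart from the other 4 by Dixon's ratio of its gap to the whole range (95% critical value 0.71), and chance gives about 1 group in 20. Cyp2a1 was low in CS-1 (z 1.45 against 1.66 to 1.73, ratio 0.736) and in CF-1 (1.24 against 1.64 to 1.71, ratio 0.849), both arrays with low 5′ actin. In the other 2 low-actin arrays Cyp2a1 was 1.65 (TS-1) and 1.92 (TF-3), within the range of their groups. Cyp2c7 was high in TS-5 (3.34 against 3.12 to 3.15, ratio 0.869) and Cyp2c6v1 in CF-2 (2.95 against 2.80 to 2.84, ratio 0.729). Cyp2d4 was high in TS-1 (1.42 against 1.15 to 1.20, ratio 0.816), and Cyp2c23 was low in TF-5 (2.64 against 2.81 to 2.87, ratio 0.759). Outside the members, Cyb5a was low in CF-7 (ratio 0.766), Oat in TS-2 (1.93 against 2.23 to 2.34, ratio 0.721) and Rgs5 in TF-3 (ratio 0.844).

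The probe set annotated to 2 Cyp2b symbols, 1371076_at, lay outside the gene counts. It was higher on fish oil by 0.534 and higher in TF than in CS by 0.899 (limma adjusted p = 0.00601 and 0.00100).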

How the results depend on the processing

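Cyp2j4 was called for oil and for TF against CS under every setting and without each rat. The count of members called on tofu, 1 as reported, was 0 under quantile normalization, 0 without moderation of the variance, 0 without the low-actin arrays and 0 at an adjusted p below 0.01. It was 3 with equal medians and interquartile ranges, 3 with a variance trend and robust estimation, 3 with array weights and 3 at an adjusted p below 0.1, 4 with bright probe sets only, and 2 with low actin as a block, Cyp2e1 and Cyp3a2 and not Cyp3a23-3a1. Leaving out each rat gave 0 to 2. TF against CS, 3 as reported, was 1 without the 3 least correlated arrays, 1 at an adjusted p below 0.01 and 1 to 4 without each rat. Oil stayed at 1 and the interaction at 0 without each rat. With the rat number as a replicate block, in which TF-3 had no weight since its number occurs in TF alone, 1 member was called on tofu, Cyp2e1 (adjusted p = 0.0363), while Cyp3a23-3a1 (0.157), Hsd17b13 (0.0547) and Nr1i3 (0.0638) were not, and Cyp3a2 was lost in TF against CS (0.0681). The correlation of Cyp2c11 and Cyp2a2 turned to 0.254 without centring on the group means and to 0.0710 without the 2 farthest rats, and was -0.491 under quantile normalization. The cause of these changes was not tested. Single-symbol probe sets were lacking for 6 further planned pairs, which were not run. Signal near the array median limits what can be said of 6 members, and z scores with an unstated base limit the folds.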
